A study of Sus scrofa with 14 samples.

Results

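The CYP1 family of the pig jejunum was examined after 6 h of perfusion with an onion digest, through the probes of 3 genes, CYP1A1, CYP1A2 and CYP1B1. A probe was taken when its RefSeq accession in the scanner files belonged to a member gene, or when the study itself gave the probe a member's name in its list of affected pig genes. This gave 4 of the 43603 probes on the array, 2 for CYP1A1 and 2 for CYP1A2, so that 2 of the 3 members had a probe and CYP1B1 had 0 by this rule. The study's list held probes that passed a 1.5-fold change, up or down, in 3 or more pigs. The brighter CYP1A1 probe, called the lead probe here, is on that list and also carries a CYP1A1 accession. The second CYP1A1 probe and the dimmer CYP1A2 probe were taken by accession alone. The brighter CYP1A2 probe was taken by the study's name alone, and the accession it carries is that of a cDNA clone for which the reference tables hold no gene. Its ratios therefore helped to choose it, and its values are given as a description.

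Cytochrome P450 enzymes of the CYP1 family oxidise planar aromatic compounds, among them combustion products, drugs and plant flavonoids. Their genes are the best known targets of the aryl hydrocarbon receptor (AHR), a ligand-activated transcription factor that waits in the cytosol bound to HSP90, moves to the nucleus when a ligand binds, pairs with ARNT and activates transcription. In the intestine, CYP1A1 is known as an inducible gene of the epithelium that responds to dietary AHR ligands, and flavonols of onion such as quercetin are known to bind the receptor. In the Sscrofa11.1 reference, CYP1A1 and CYP1A2 are direct neighbours with no other gene between them.

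The small intestinal segment perfusion (SISP) model uses anaesthetised piglets, in which a segment of gut with its blood and nerve supply intact is filled through a tube and perfused. The 14 arrays came from 7 male piglets of 5 weeks and 8.2 kg, each with 2 segments that lay between 31% and 58% along the small intestine and started with a fill of 20 ml. Pigs 1, 2 and 4 had a segment with yellow onion digest (YOd) and a segment with saline digest (Sd, the digestion control without onion), and pigs 5, 6, 7 and 8 had a segment with white onion digest (WOd) and a segment with Sd. All groups went through the same surgery and perfusion, and each array held the mucosal scraping of 1 segment of 1 animal. The control digest was diluted in saline solution and the onion digests in peptone, and the control digest was diluted more. Onion and Sd segments thus also differed in diluent and digest strength, and the part of these was not tested. No genotype or breed was named in the sources used here.

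The scrapings held the markers of absorptive epithelium. Of 13 enterocyte markers, 7 could be named through their accessions, among them FABP2, the intestinal fatty acid binding protein, and all 7 were above the floor on every array. Of these 7 probes, 6 were saturated on all 14 arrays, which gives only a lower bound for them. The share of probes well above background was lowest on the Sd array of pig 8 (50.05%) and the WOd array of pig 7 (54.9%) and highest on the Sd array of pig 2 (70.7%). The arrays lay on 5 slides. In pigs 2 and 7 the Sd array was on another slide and in another scan session than the onion array, whereas in the other 5 pigs both arrays shared a slide. A scraping is a mixture of cells, so fewer cells of a type and less RNA per cell cannot be told apart.

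CYP1A1 was measured well above background on all 14 arrays, and its level differed widely between pigs. Levels below are log2 of the signal over the 75th percentile of the array, on which scale the floor lay at -4.43. In the Sd segments the lead probe stood highest in pig 1 (3.29) and pig 8 (1.49), followed by pig 6 (0.15), pig 2 (-0.37), pig 5 (-0.50), pig 4 (-0.72) and pig 7 (-0.79). The YOd segments of pigs 1, 2 and 4 had levels of 1.85, -0.21 and 0.86, and the WOd segments of pigs 5, 6, 7 and 8 had levels of 0.91, -0.94, -2.06 and 0.62. Pig 1 held the 2 highest levels of all, that of its Sd segment being the highest, and the WOd segment of pig 7 held the lowest. The levels covered a 41.0-fold range over the 14 arrays and a 16.9-fold range over the 7 Sd arrays, where no onion was given. The probe was saturated on 0 arrays, and its processed signal ran from 133.3 to 4415 intensity units.

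By group, the mean CYP1A1 level came to 0.84 ± 1.03 (SD, n = 3) after YOd, where the Sd segments of the same pigs had 0.74 ± 2.22 (SD, n = 3). After WOd it came to -0.37 ± 1.39 (SD, n = 4), where the Sd segments of those pigs had 0.087 ± 1.01 (SD, n = 4). In this order of means, from YOd over the 2 sets of Sd segments to WOd, each neighbouring pair overlapped in its values and differed by less than its SD.

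**Figure D1:**
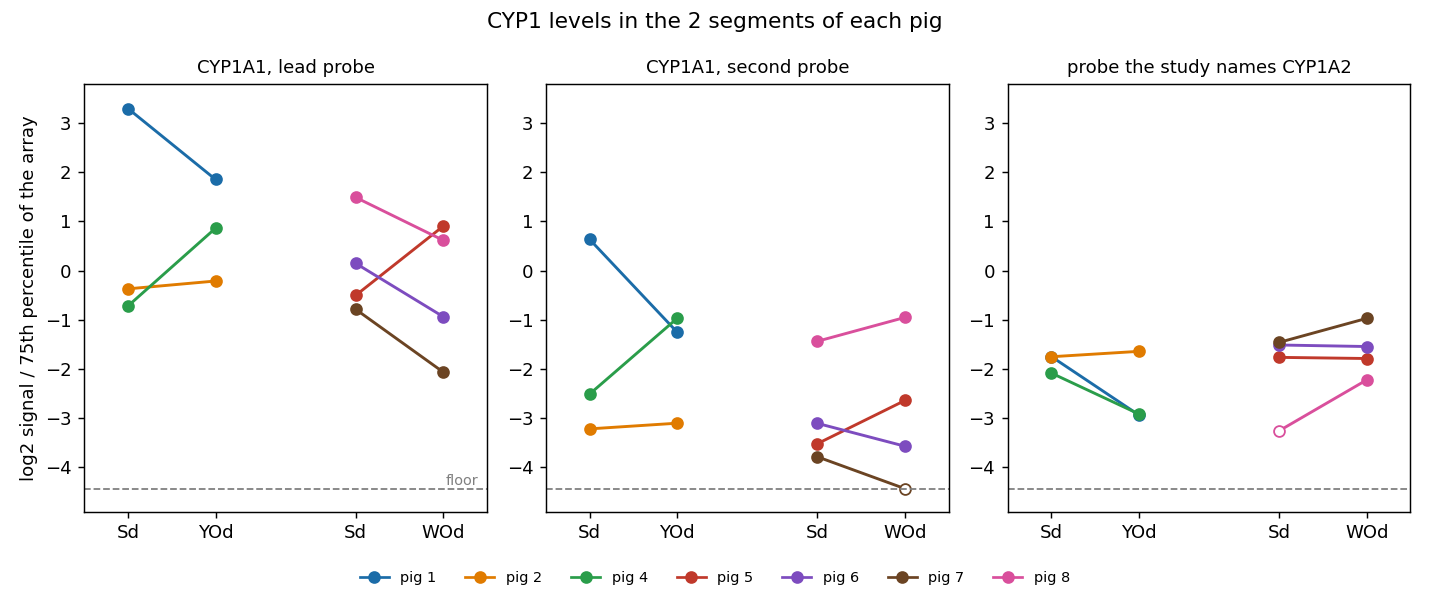
Levels of the 3 CYP1 probes that rose above the floor on most arrays, as log2 of the signal over the array's 75th percentile (vertical axis) in the Sd and the onion segment of each pig, joined by a line per pig, with the floor of -4.43 dashed. Open circles are arrays on which the probe was not well above background, and the CYP1A1 lines run in both directions under either onion.

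Compared within each pig, the onion segment took both directions from its Sd segment under both onions. With YOd, pigs 1, 2 and 4 had log2 ratios of -1.44, 0.16 and 1.58 for the lead probe, which is a 2.72-fold lower level in pig 1 and a 2.99-fold higher one in pig 4. With WOd, pigs 5, 6, 7 and 8 had log2 ratios of 1.41, -1.08, -1.28 and -0.87. The lead probe was thus higher with onion in 3 of the 7 pigs and lower in 4. Pig 2 was the only one of the 7 in which the lead probe moved less than 1.5-fold, and its 2 arrays also differed least over all probes, with a median absolute log2 ratio of 0.13 against 0.23 to 0.31 in the other pigs. The sign of the lead probe's ratio was the same in 7 of 7 pigs when the authors' own log2 values, quantile normalization, unscaled signals, another background correction or no floor was used.

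The second CYP1A1 probe, which was chosen without regard to its values, showed the same pigs as high and low. Pigs 1, 2, 4, 5, 6 and 8 had log2 ratios of -1.89, 0.12, 1.54, 0.88, -0.46 and 0.48 for this probe, and pig 7, with its WOd array at the floor, had -0.65 or lower. The probes took the same sign in 6 of 7 pigs and opposite signs in pig 8. Over the 14 arrays, which share pigs in pairs, the levels of the probes correlated with a Pearson r of 0.91 and a Spearman rho of 0.85. Over the 7 pigs their ratios correlated with an r of 0.85.

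**Figure D2:**
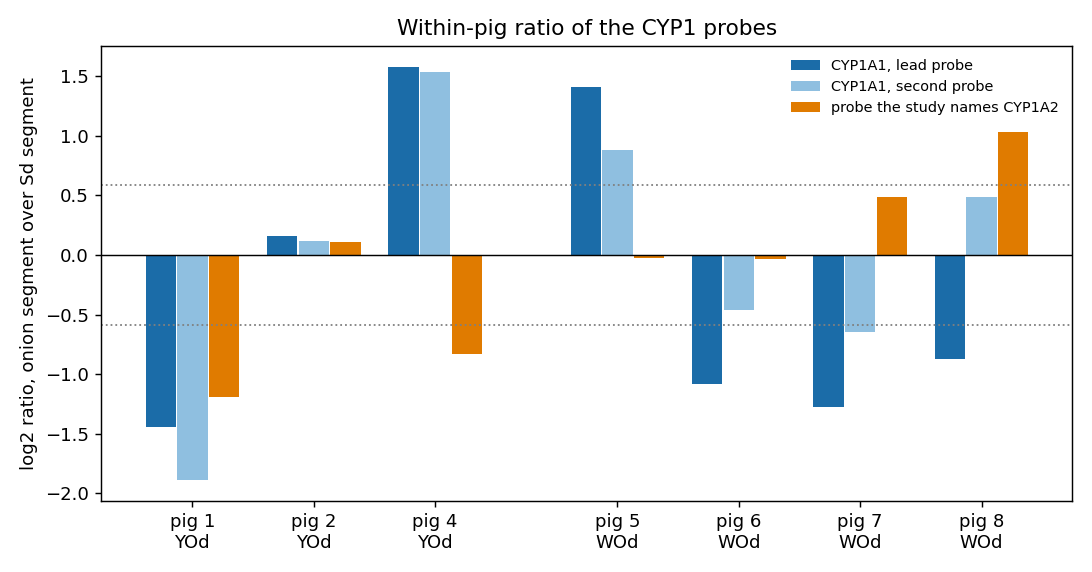
Log2 ratio, onion over Sd (vertical axis), of 3 CYP1 probes in each of the 7 pigs, with dotted lines at 1.5-fold in either direction. Bars of the 2 CYP1A1 probes point the same way in all pigs but pig 8, and the lead probe is higher with onion in pigs 2, 4 and 5.

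No common effect of onion on CYP1A1 was found by the paired fits. In YOd/Sd the log2 fold change of the lead probe was 0.10 (SE 0.51, 95% confidence interval -1.13 to 1.33, 3 pigs), with a Benjamini-Hochberg adjusted p of 0.930 from limma. In WOd/Sd it was -0.46 (SE 0.44, interval -1.49 to 0.58, 4 pigs), with an adjusted p of 1.000 from limma. These intervals reach beyond a 2-fold change on at least one side, so the data do not show that the level was the same. Affected probes, by the study's thresholds (unadjusted p below 0.05, fold change above 1.5), included 0 of the 2 CYP1A1 probes in either comparison, where 4.92% of 26397 probes passed in YOd/Sd and 1.3% of 26099 in WOd/Sd (0.889% as higher and 0.41% as lower). After adjustment, limma called 0 probes in either comparison, with 3154 and 816 probes at an unadjusted p under 0.05.

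The call rested on single pigs. Without pig 1 the lead probe passed both thresholds in YOd/Sd as upregulated, at a log2 fold change of 0.87, and without pig 4 it stood at -0.64. Without pig 5 it passed both in WOd/Sd as downregulated, at -1.08, with limma adjusted p values of 0.820 and 0.999 for the 2 changes that passed. The second probe passed in YOd/Sd without pig 1 as well (0.83), and in WOd/Sd without pig 5 it stood at -0.21 and did not pass. With the slide as a further block the values were 0.070 in YOd/Sd and -0.18 in WOd/Sd. These are the values without pig 2 and without pig 7, whose arrays lay on different slides. The block in effect left out these pigs, so it is no separate check on slides.

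Over all 7 pigs together, the lead probe had a log2 fold change of -0.22 (SE 0.38, interval -1.06 to 0.62) and an adjusted p of 0.931 from limma. The second probe had 0.0026 (SE 0.34, interval -0.74 to 0.75). Neither passed the thresholds, which 0.857% of 26013 probes did. An exact two-sided sign-flip permutation test of the mean ratio of the lead probe gave p = 0.672 (0.828 adjusted over the lead probes of both genes), where 0.0156 is the smallest value that 7 pigs allow. Set against each other, the YOd effect on CYP1A1 lay above that of WOd by 0.56 (SE 0.81, interval -1.29 to 2.40, adjusted p 0.878 from limma), and this difference did not pass the thresholds, which 5.65% of 28340 probes did. With pigs 7 and 8 left out, which hold the arrays of fewest measured probes, the lead probe stood at 0.16 in WOd/Sd and at 0.12 over the remaining 5 pigs.

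**Figure D3:**
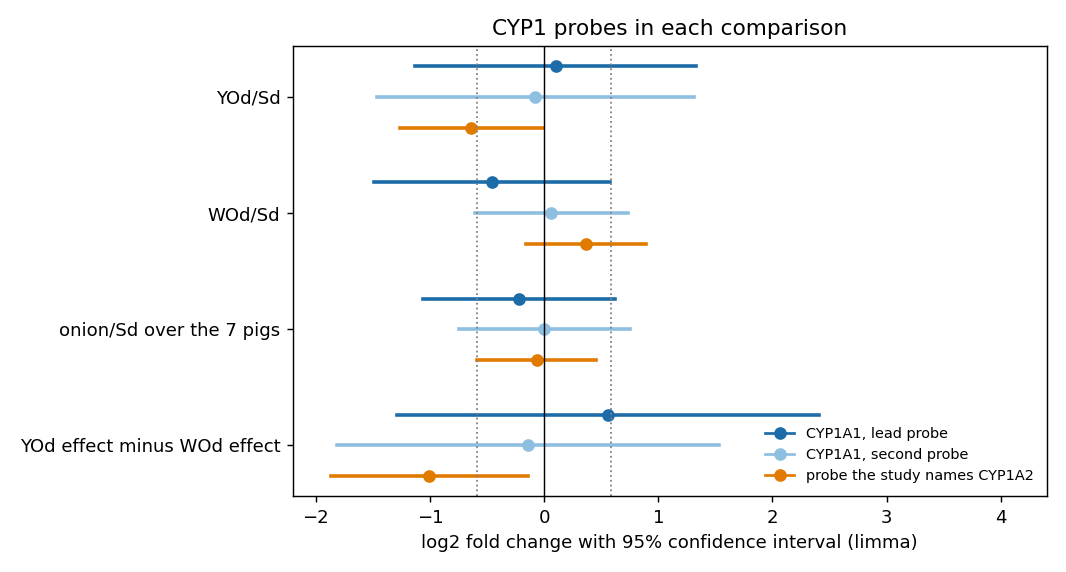
Log2 fold change (points) with its 95% confidence interval (lines) of 3 CYP1 probes in each comparison, from limma fits blocked by pig, with dotted lines at 1.5-fold in either direction. The 8 intervals of the CYP1A1 probes include 0, and those of the probe the study names CYP1A2, which its list chose on these ratios, are drawn as a description.

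CYP1A1 stood out in the size of its ratio, not in a shared direction. The SD of the log2 ratio over the 7 pigs was 1.28 for the lead probe, against a median of 0.35 over the 21043 probes that were above the floor on all arrays, and 0.642% of those probes reached that SD. Its median absolute log2 ratio was 1.28 against a median of 0.24 over all probes, and 19 of the 21043 probes (0.0903%) reached it. Since the study listed the lead probe for large ratios, these ranks are a description. The second probe, taken by accession, had an SD of 1.12 over the 7 pigs and a median absolute ratio of 0.65, and it moved over 1.5-fold in 4 of 7 pigs, among them pig 7 with its bound. The lead probe's level varied between pigs without onion as well, with an SD of 1.51 over the 7 Sd arrays. The median of that SD over all probes was 0.39. Over the 7 onion arrays the SD of the lead probe's level was 1.32. Each pig had a single Sd array, so the spread of a within-pig ratio without onion was not measured.

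Within single pigs, the share of probes whose absolute ratio was larger than that of CYP1A1 was 0.675% for pig 4, 0.784% for pig 5, 1.10% for pig 1, 2.32% for pig 6, 4.48% for pig 8 and 4.79% for pig 7, and 41.2% for pig 2. A move beyond 1.5-fold in 6 or more pigs was seen for 24 of the 21043 probes, and in 5 of these, the lead probe included, 2 or more pigs went each way. The lead probe did so with 2 pigs up and 4 down. Because the study listed this probe for moves over 1.5-fold, these shares and counts are a description. The second CYP1A1 probe, taken by accession, moved over 1.5-fold in 4 pigs, in pig 7 with its WOd array at the floor. Of the 21043 probes, 11.3% moved over 1.5-fold in 3 or more pigs, and the share for 4 or more was not counted.

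**Figure D4:**
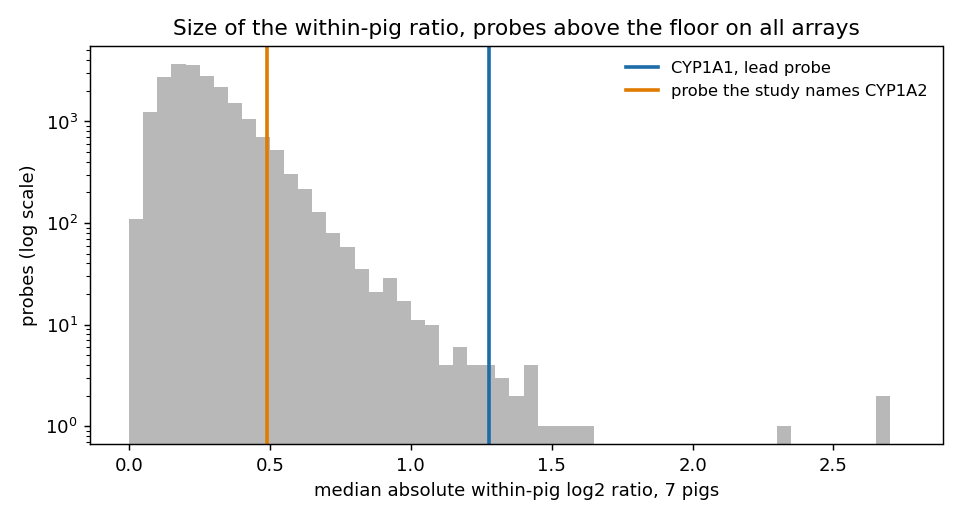
Number of probes (vertical axis, log scale) by their median absolute within-pig log2 ratio over the 7 pigs (horizontal axis), for the 21043 probes above the floor on all arrays. The CYP1A1 lead probe lies at 1.28, where 19 probes lie at or beyond it, and the probe the study names CYP1A2 at 0.49. Both are on the study's list of large ratios, so their places are a description.

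CYP1A2, a P450 best known from the liver where it clears caffeine, was represented by probes that gave different pictures. The probe with a CYP1A2 accession was well above background on 0 arrays. It lay at the floor on 12 of the 13 arrays that measured it, was slightly above it at -4.00 on the Sd array of pig 8, and had an outlier spot on the Sd array of pig 4. It was too dim to be tested, so no onion ratio is given for it. This bounds the signal of that probe only.

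The probe that the study names CYP1A2 was well above background on 13 of 14 arrays, the exception being the Sd array of pig 8. In the Sd segments of pigs 1, 2, 4, 5, 6, 7 and 8 it had levels of -1.75, -1.75, -2.08, -1.76, -1.51, -1.46 and -3.25. The YOd segments of pigs 1, 2 and 4 had -2.94, -1.64 and -2.91, and the WOd segments of pigs 5, 6, 7 and 8 had -1.79, -1.54, -0.97 and -2.22. The level was lower with YOd in pigs 1 and 4, by 2.28-fold and 1.78-fold, and higher with WOd in pig 8, by 2.05-fold, and moved less than 1.5-fold in the other 4 pigs. In pig 4 it was lower with onion where CYP1A1 was higher, and in pigs 7 and 8 higher where the CYP1A1 lead probe was lower.

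The study's list chose this probe for the size of these ratios, so its fold changes are given without p-values. The sign-flip test was also run on this probe, and its result served only to adjust that of CYP1A1. In YOd/Sd the probe had a log2 fold change of -0.64 (SE 0.26, 3 pigs), and -0.36 without pig 1, -0.54 without pig 4 and -1.01 without pig 2. In WOd/Sd it had 0.37 (SE 0.22, 4 pigs). Subtracting the WOd effect from the YOd effect gave -1.004 (SE 0.38), and -0.73 without pig 1, -0.91 without pig 4 and -0.78 without pig 8. Over the 7 pigs it had -0.063 (SE 0.24), higher in 3 and lower in 4.

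Measures of array quality are given beside these levels. The Sd array of pig 8, on which the probe named CYP1A2 was lowest, had the smallest share of probes well above background, and it had 462 outlier spots where the other 13 arrays had 5 to 282. The WOd array of pig 7, which held the lowest CYP1A1 level and the highest level of the probe named CYP1A2, had the second smallest share, so the arrays with the smallest shares lay at opposite ends for the probe named CYP1A2. Over the 14 arrays the share of probes well above background had an r of -0.19 with CYP1A1 and 0.43 with the probe named CYP1A2, and its part in the ratios was not tested. The levels of these probes had an r of -0.58 over the 14 arrays and -0.30 over the 7 Sd arrays, and their ratios an r of -0.21 over the 7 pigs, values that share arrays, pigs and scaling.

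CYP1B1, the member known from stroma and from tumours, is not described further, as it had 0 probes by the rule.

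Of 12 genes listed for the AHR complex and its regulators, 5 could be named through their accessions (ARNT2, HSP90AA1, HSP90AB1, HIF1A and NCOA1), and AHR, ARNT, AHRR and TIPARP were not among them. ARNT2 was above the floor on 0 arrays, and of the 4 that were tested 0 passed the thresholds in any comparison, which for 4 genes is no different from the 0.857% to 5.65% of all probes that did. HSP90AB1, a chaperone that holds the receptor in the cytosol, was saturated on all 14 arrays.

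Of the other known AHR targets, 4 of 14 were named, all above the floor on every array. NQO1, a quinone reductase that is a target of both AHR and the oxidative stress factor NRF2, was upregulated in YOd/Sd with a log2 fold change of 0.90 (SE 0.25, adjusted p 0.417 from limma), 1 of 4 where 2.46% of all probes tested passed as higher. In WOd/Sd NQO1 stood at 0.54 (SE 0.50) and did not pass. The remaining 3, GSTA1 (glutathione conjugation), EPHX1 (epoxide hydrolysis) and ABCG2 (efflux of xenobiotics), passed in 0 comparisons, GSTA1 being saturated on 7 arrays, with log2 fold changes from 0.25 to 0.46 in YOd/Sd and from 0.15 to 0.34 in WOd/Sd. The list's median log2 fold change was 0.42 in YOd/Sd, 0.28 in WOd/Sd and 0.29 over the 7 pigs, against 0.066, 0.035 and 0.038 over all probes tested. Most marker lists also lay above that median in YOd/Sd, among them proximal gut (0.61), enterocyte (0.33), endothelium (0.32) and stroma (0.29). The crypt (-0.12), goblet (-0.051), smooth muscle (-0.055) and ileum markers (-0.48) lay below it. A median above that of all probes was thus not particular to the AHR targets in YOd/Sd, though only proximal gut exceeded theirs. In WOd/Sd proximal gut stood at 0.47, goblet at 0.25, stroma at 0.065, enterocyte at 0.048 and endothelium at -0.046. Over the 7 pigs proximal gut stood at 0.53, endothelium at 0.19, enterocyte at 0.15 and stroma at 0.13. The crypt, smooth muscle and ileum medians were negative in both.

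NQO1 and CYP1A1 parted in several pigs. For NQO1, pigs 1, 2, 4, 5, 6, 7 and 8 had log2 ratios of 1.34, 0.15, 1.21, 1.49, 1.17, -1.65 and 1.16, so NQO1 was higher with onion in 6 of 7 pigs. It shared the sign of the CYP1A1 lead probe in 4 pigs and went the other way in pigs 1, 6 and 8. The second CYP1A1 probe was higher with onion in pig 8, as was NQO1, and went the other way from NQO1 in pigs 1 and 6. In pig 7 CYP1A1, NQO1 and EPHX1 (-1.83) were all lower with onion, as was the named P450 gene CYP2B22 (-1.67). GSTA1 shared the sign of the CYP1A1 lead probe in 4 of 7 pigs, EPHX1 in 3 and ABCG2 in 5. The ratios correlated with those of the lead probe with an r of 0.35 for NQO1, 0.51 for GSTA1, 0.27 for EPHX1 and 0.53 for ABCG2, over the same 7 pigs and arrays.

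**Figure D5:**
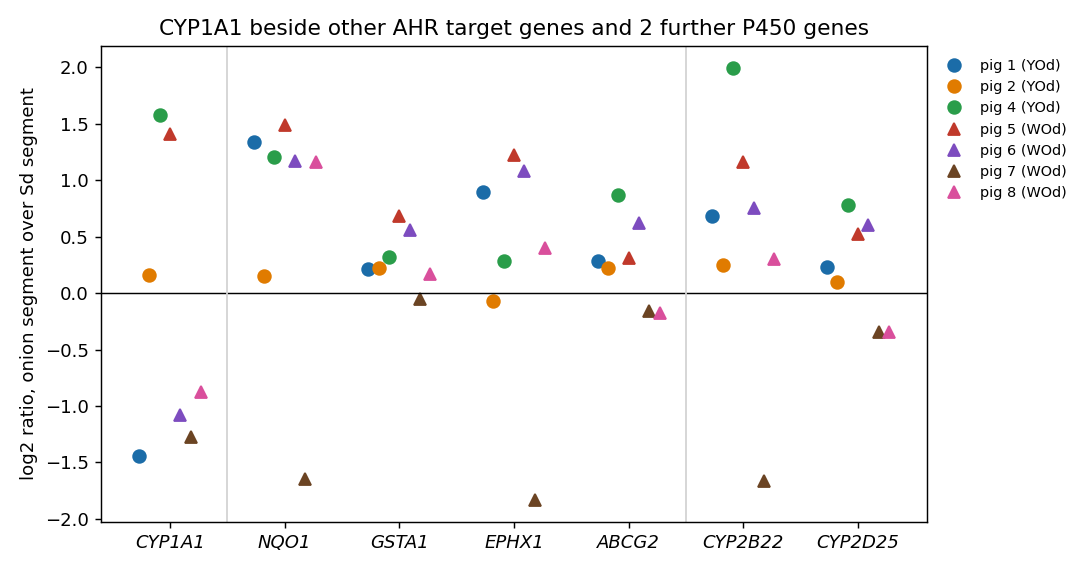
Log2 ratio within the pig, onion over Sd (vertical axis), of CYP1A1, 4 other AHR target genes and 2 P450 genes, a point for each pig (circles YOd, triangles WOd). NQO1 is higher with onion in 6 pigs and lower in pig 7, while the CYP1A1 ratios lie on both sides of 0 under each onion.

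Genes that serve P450 enzymes were measured for 5 of 13 listed, among them POR, the reductase that passes electrons to every microsomal P450. HMOX1, which degrades heme and is a stress-induced gene, was upregulated in YOd/Sd with a log2 fold change of 0.69 (SE 0.24, adjusted p 0.417 from limma), 1 of 5 where 2.46% of all probes tested passed as higher, and its ratio was 1.37 in pig 4 and between 0.33 and 0.36 in pigs 1 and 2. In WOd/Sd it stood at 0.097 (SE 0.17). The remaining 4 passed in 0 comparisons.

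Markers of other cells and of position along the gut moved in some pigs. In the Sd segment of pig 6, FABP6, a bile acid binding protein typical of the ileum, stood at 6.47 against -2.17 to 3.70 in the other Sd segments, and its log2 ratio in that pig was -6.04. MS4A1, a B cell marker, stood at 0.92 on that array and at -3.00 or the floor on the other Sd arrays. The 7 lymphocyte markers named of 9 listed summed to levels of 2.13 to 8.73 in Sd, 4.75 to 6.35 in YOd and 2.19 to 8.87 in WOd, where 1 is the 75th percentile of an array, and MS4A1 was at the floor on 11 of 14 arrays. Without pig 6 CYP1A1 stood at -0.25 in WOd/Sd and -0.074 over the remaining 6 pigs. Their part in the CYP1A1 ratio of pig 6 was not tested.

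PDX1, a transcription factor of the proximal gut, passed as upregulated in YOd/Sd (1.25, SE 0.39), in WOd/Sd (0.96, SE 0.26) and over the 7 pigs (1.09, SE 0.25), where 2.46%, 0.889% and 0.588% of all probes tested passed as higher, and CYBRD1, the other gene named of 4 in that list, passed in 0 comparisons. The enteroendocrine hormone gene CCK, 1 of 5 named in its list, passed as upregulated in YOd/Sd (0.92, SE 0.27). The median of that list was 0.22. SLC10A2, the bile acid transporter of the ileum, passed as downregulated in YOd/Sd (-1.19, SE 0.44), with the YOd array of pig 4 at the floor. FABP6, the other ileum marker, stood at 0.23 (SE 0.35) in YOd/Sd and did not pass. Of all probes tested in YOd/Sd, 2.46% passed as lower. CD3D of T cells passed as higher in the difference between the onions (0.69, SE 0.27), as did 1.72% of all probes tested (3.93% passed as lower). Of the crypt (2 of 7 named), goblet (2 of 6), myeloid (3 of 6), stroma (3 of 8), endothelium (3 of 5), smooth muscle (3 of 7) and enterocyte markers, 0 passed in any comparison. For PDX1, CCK, SLC10A2 and CD3D the limma adjusted p was 0.417 or above. The 3 smooth muscle markers named of 7, ACTA2, DES and CNN1, summed to levels of 19.3 to 38.6 in Sd, 21.0 to 45.2 in YOd and 11.4 to 31.2 in WOd, and their sum had an r of 0.64 with the CYP1A1 level over the 14 arrays and 0.24 with its ratio over the 7 pigs. The part of these markers in the CYP1A1 values was not tested.

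Among 2181 named genes above the floor on every array, the levels most like those of CYP1A1 over the 14 arrays belonged to CYP2B22 (r = 0.82), CYP2D25 (0.81), AQP10 (0.80), PCBP2 (0.79) and PTGER3 (0.78). CYP2B22 and CYP2D25 are P450 enzymes of other families that oxidise drugs and steroids, AQP10 is a water and glycerol channel of the small intestine, PCBP2 binds RNA and PTGER3 is a receptor for prostaglandin E2. The arrays come in pairs from the same pigs, so these values mostly describe which pigs were high. Without the highest and the lowest CYP1A1 array the r of CYP2B22 was 0.78 and that of AQP10 was 0.81, and the 5 genes kept an r of 0.71 or above. Without both arrays of pig 1 the r was 0.77 for CYP2B22, 0.71 for CYP2D25, 0.67 for AQP10, 0.69 for PCBP2 and 0.70 for PTGER3.

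The within-pig ratios of these genes followed CYP1A1 less closely. CYP2B22 was higher with onion in pig 1 (0.68) and pig 6 (0.75), where CYP1A1 was lower. It shared the sign of the CYP1A1 lead probe in 4 of 7 pigs, and had an r of 0.66 over the ratios, which ranked 75th of the 2181 genes. PTGER3 had an r of 0.30 over the ratios. The genes most opposed in level were FCGR2B (r = -0.76), FAT1 (-0.76) and CCL24 (-0.75), an inhibitory antibody receptor, a cadherin-like protein and an eosinophil-attracting chemokine.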

How the data were processed

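Mucosal scrapings of 14 jejunal segments of 7 pigs were measured on 1-colour Agilent arrays. The authors deposited scanner files whose processed signal is a background-subtracted intensity on a linear scale (Feature Extraction 10.7.3.1), and a table of log2 values that were floored and centred per probe and whose normalization is not given in the sources used here. Outlier spots were left out, spots of a probe averaged, divided by the array's 75th percentile and floored at the pooled 40th percentile. All 43603 probes entered limma 3.58.1 (R 4.3.3), blocked by pig, when above the floor on at least as many arrays as the smaller group held. As in the study's methods, an unadjusted p below 0.05 and a fold above 1.5 made a probe affected, with Benjamini-Hochberg values over all probes tested. Segments of 1 pig pair by design, and their deviations from the group means correlated with r from 0.334 to 0.781 over 21043 probes. P-values measure the spread between the pigs sampled, and the number of arrays limits the precision. Other steps used Python 3.11.15. The fits were tested on simulated data.

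Names came from RefSeq accessions (6686 probes, 3020 genes). Named genes were the members, NQO1, list genes past the thresholds, and the 5 genes most like and 3 least like CYP1A1 in level. EPHX1, GSTA1, ABCG2, FABP6, MS4A1, CD79A, ASCL2 and TOP2A were named after their values were seen. Members, lists and tests were chosen with earlier results of these data known, and the marker lists covered enterocyte, crypt, goblet, enteroendocrine, lymphocyte, myeloid, smooth muscle, stroma, endothelium, ileum and proximal gut. Alternatives covered scaling, background correction, floor, filter, probe choice, the authors' values, blocks and each pig left out. Pig 3, the saline segments without digest and probe sequences were not analysed here.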

Additional observations from a re-analysis of the deposited data

Results flagged for a closer look

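In WOd/Sd the lead CYP1A1 probe had a log2 ratio of 1.41 in pig 5, apart from the other 3 WOd pigs at -1.28 to -0.87, with a gap to the nearest value of 0.849 of the whole range. The second CYP1A1 probe did not set pig 5 apart, with WOd ratios of 0.88 in pig 5, 0.48 in pig 8, -0.46 in pig 6 and -0.65 or lower in pig 7. Among the 7 Sd arrays the probe named CYP1A2 stood at -3.25 in pig 8, apart from the next at -2.08, with a gap of 0.653 of the range. That array was the one on which the probe was not well above background. Both are single samples far from the others of their group by the gap rule of Dixon's test. The study listed both probes for large ratios in these same pigs, so the flags are a description and no test. In all, 12 series of values were looked at and 2 stood out. The rule flags about 1 in 20 by chance only for series not chosen on their values.

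The effect of YOd minus that of WOd on the probe named CYP1A2 was -1.004 (log2), a difference between the onions. The study listed this probe for large ratios in these same pigs, so the value is a description and no test of it is given. The probe moved below Sd in pigs 1 and 4 with YOd and above it in pigs 7 and 8 with WOd.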

How the results depend on the processing

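The fold changes of the probe named CYP1A2 describe a probe that the study's list chose on these ratios, so whether they pass a threshold is no independent test. Its value in YOd/Sd (-0.64, log2) was past both thresholds, and no longer with quantile normalization (-0.65), normexp background correction (-0.27), no floor, a floor at the 25th percentile or no filter on dim probes (-0.64 each), or the authors' values (-0.70), nor without the pig as a replicate block (-0.64). Without pig 1 (-0.36) or without pig 4 (-0.54) that value was not past both thresholds either. The YOd minus WOd effect of the probe named CYP1A2 (-1.004) was also past them, and no longer without pig 1 (-0.73), pig 4 (-0.91) or pig 8 (-0.78). Nor was that effect past them with normexp (-0.46), no filter (-1.004), without the replicate block (-1.004), or with pigs 7 and 8 left out (-0.61), an alternative chosen after seeing the data. With these pigs left out the lead CYP1A1 probe turned to 0.16 in WOd/Sd, 0.12 over the remaining pigs and -0.061 in the difference, and the probe named CYP1A2 turned to -0.027 in WOd/Sd. The lead CYP1A1 probe turned to -0.21 in YOd/Sd without scaling between arrays. The second CYP1A1 probe, near 0 in each comparison, turned to -0.017 in WOd/Sd and -0.043 over the 7 pigs with no floor or the lower floor, and over the 7 pigs to -0.032 with quantile normalization and -0.16 without scaling. The replicate block changed no CYP1A1 call.

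Leaving out single pigs, the lead CYP1A1 probe ranged from -0.64 to 0.87 in YOd/Sd, from -1.08 to -0.18 in WOd/Sd, from -0.52 to -0.014 over the 7 pigs and from -0.18 to 1.33 in the difference. The second probe ranged from -0.89 to 0.83, from -0.21 to 0.30, from -0.25 to 0.32 and from -0.95 to 0.76 in the same order. The probe named CYP1A2 ranged from -1.01 to -0.36, from 0.14 to 0.50, from -0.25 to 0.12 and from -1.38 to -0.73 in the same order.

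The number of affected probes moved with most settings, and the cause was not tested. Within each onion the slide block in effect left out pig 2 (YOd/Sd) or pig 7 (WOd/Sd), whose arrays lay on different slides. In YOd/Sd the count was 3374 with that block and 3376 without pig 2. In WOd/Sd it was 727 with that block and 742 without pig 7. In YOd/Sd, 1300 became 3034 without scaling (76 higher and 2958 lower, against 650 and 650), 402 with normexp, 285 with no filter, 114 with 1 probe per named gene, 98 with the authors' values, 331 without the replicate block and 3374 with the slide as a block, and 837 to 3376 with a pig left out. In WOd/Sd, 339 became 61 with normexp, 690 with the lower floor, 129 with no filter, 29 with 1 probe per named gene, 53 with the authors' values, 134 without the replicate block, 727 with the slide as a block, 1057 with pigs 7 and 8 left out and 490 to 742 with a pig left out. Over the 7 pigs, 223 became 63 with normexp, 514 with the lower floor, 137 with no filter, 127 when above the floor on every array, 30 with 1 probe per named gene, 70 with the authors' values, 105 without the replicate block, 557 with the slide as a block, 493 with pigs 7 and 8 left out and 183 to 357 with a pig left out, and without scaling 35 were higher and 186 lower, against 153 and 70. In the difference, 1601 became 2754 without scaling (61 higher and 2693 lower, against 487 and 1114), 697 with normexp, 93 with 1 probe per named gene, 368 with the authors' values, 316 without the replicate block, 2889 with the slide as a block and 780 to 2479 with a pig left out. Fits with 1 probe per named gene, the authors' values or fewer pigs tested fewer probes or samples.

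Of the 5 genes most like CYP1A1 in level, 0 remained among the first 5 by Spearman's rho or by the within-pig ratios, and the planned promoter motif search was not run. Signal over background limits the dimmer CYP1A2 probe, which was well above background on 0 of the 13 arrays that measured it.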

Other observations

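Among the marker genes, ASCL2, a transcription factor of intestinal stem cells, had the within-pig ratios nearest to those of the CYP1A1 lead probe. It had the same sign in 6 of 7 pigs and an r of 0.82 over the 7 pigs. Pigs 1, 2, 4, 5, 6, 7 and 8 had log2 ratios of 0.18, 0.25, 0.52, 0.89, -0.012, -0.60 and -0.16 for ASCL2, so pigs 4 and 5 were highest and pig 7 lowest. ASCL2 was singled out after its values were seen, and it passed the thresholds in 0 comparisons. The crypt marker list held 2 named genes of 7. The other, TOP2A of dividing cells, was lower with onion in 6 of 7 pigs and had an r of -0.48 with the CYP1A1 ratios.

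CD79A, a B cell receptor component, stood at -0.25 in the Sd segment of pig 6 against -3.03 or lower in the other Sd segments, and was at the floor in the WOd segment of that pig.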
